A study of Homo sapiens with 4 samples.

Results

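The 8 genes described here encode regulators of complement and immune checkpoint proteins of the cell surface: CD55, CD46 and CD59, and CD274 (PD-L1), CD276 (B7-H3), C10orf54 (VSIR, or VISTA), PVR (CD155) and CD47. They are 8 of 33845 genes in an mRNA-seq table of SW620 cells, a colorectal cancer line derived from a lymph node metastasis, and were taken by symbol. CD55 and C10orf54 were chosen by their FPKM values, which differed between the groups compared below, so their values are given as a description without a test. The other 6 were included for their function.

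Complement tags cells with fragments of C3 and C4 and can end in a pore of terminal components in the membrane. CD55 (decay-accelerating factor) takes apart the convertases that cleave C3 and C5, CD46 (membrane cofactor protein) helps factor I to cut deposited C3b and C4b, and CD59 (protectin) stops C9 from completing the pore. CD55 and CD59 are held in the membrane by a glycosylphosphatidylinositol (GPI) anchor, whereas CD46 spans the membrane. Checkpoint proteins restrain immune cells: CD274 is the ligand of PD-1 on T cells, CD276 and VSIR belong to the same B7-related group, PVR binds TIGIT, CD96 and CD226 on lymphocytes, and CD47 binds SIRPA on phagocytes. Tumour cells commonly carry several of them.

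The study set 2 libraries of SW620 cells stably transfected with a Flag-GAP43 plasmid (GAP43) against 2 libraries of SW620 cells stably transfected with a control plasmid (control), all at passages 12 to 15. GAP43 is a membrane-associated protein of nerve growth cones. No source used here says whether the cells were clones or whether libraries of a group came from separate cultures, so the p-values measure the spread between these libraries, which may be technical. Values are FPKM, fragments per kilobase of gene model scaled to library size, and 17473071 to 21883137 fragments were recovered per library. Pearson correlations of log2 values were 0.978 to 0.982 among control replicates 1 and 2 and GAP43 replicate 1, and 0.940 to 0.952 between GAP43 replicate 2 and these. GAP43 itself stood at 4.40 and 4.14 FPKM in control and 16.3 and 9.89 FPKM in GAP43, a log2 fold change of 1.38 (SE 0.24, limma unadjusted p = 0.00117, adjusted p = 0.692). Differences are log2(FPKM + 1) in GAP43 minus control, tested with limma over the 13507 genes whose mean reached 1 FPKM. This scale understates the change of genes near that level. No gene passed an adjusted p of 0.05 (0% of 13507, lowest 0.692), also 0 with limma's voom, while 795 passed unadjusted (5.89%), 412 of them higher (3.05%) and 383 lower (2.84%). An exact permutation test of 2 against 2 libraries cannot go below p = 0.333.

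Among the 8 genes, both GAP43 libraries lay below both controls for CD55 and PVR and above both for C10orf54 and CD274, and the groups overlapped for CD46, CD59, CD276 and CD47. Over all genes tested, the groups failed to overlap in 41.2%, with GAP43 above in 17.1% and below in 24.1%. The filter kept 7 of the 8 genes, all but CD274. Of the 5 tested genes that were not chosen for their change, 0 were called by limma at an unadjusted or an adjusted p of 0.05 (unadjusted p 0.235 to 0.979), beside 5.89% and 0% of all genes, and the groups did not overlap in 1 of them, PVR. With only 2 libraries a group these misses do not show equal expression, so an interval is given for each.

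**Figure D1:**
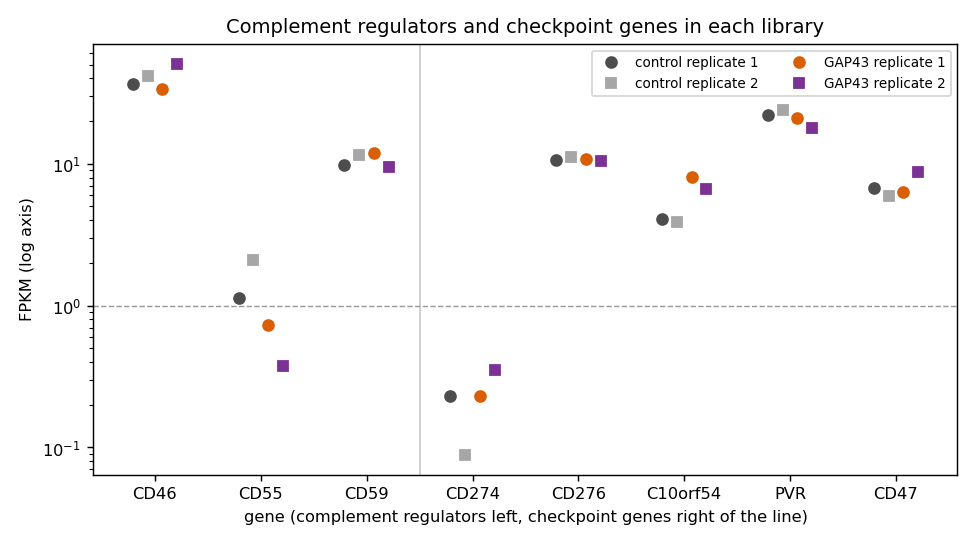
FPKM on a log axis of the 3 complement regulators and the 5 checkpoint genes in each of the 4 libraries, with a dashed line at 1 FPKM. CD46 is the highest gene (33.5 to 50.8 FPKM) and CD274 the lowest (0.0882 to 0.349 FPKM), and the closest libraries of the groups are 1.56-fold apart for CD55 and 1.65-fold apart for C10orf54, against 1.05-fold for PVR.

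CD55 (ENSG00000196352, chromosome 1, 207321508 to 207386804, plus strand) stood at 1.13 and 2.08 FPKM in control and at 0.725 and 0.377 FPKM in GAP43. Both GAP43 libraries were lower than both controls, and GAP43 replicate 2 was the lowest. The means were 1.61 ± 0.672 and 0.551 ± 0.246 FPKM (SD, n = 2 each), a 2.92-fold lower mean in GAP43. Within the groups, control replicate 2 was 1.84-fold above control replicate 1 and GAP43 replicate 1 was 1.92-fold above GAP43 replicate 2, whereas the gap from the lowest control to the highest GAP43 library was 1.56-fold. The closest libraries of the 2 groups were thus nearer to each other than the replicates of either group. On the log2(FPKM + 1) scale the difference was -0.73 (SE 0.29), with -0.57 and -0.90 for the GAP43 replicates against the control mean. Its mean over the 4 libraries, 1.08 FPKM, was just over the filter, and it rested on 133, 224, 89 and 41 fragments in control replicates 1 and 2 and GAP43 replicates 1 and 2. The 95% Poisson intervals of these counts were 0.948 to 1.34, 1.82 to 2.37, 0.582 to 0.892 and 0.271 to 0.512 FPKM, which do not overlap between any pair of libraries but cover counting error only.

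The study also assayed CD55 by qRT-PCR. Its primer pair shows which part of the transcript that assay reads, and is printed 5′ to 3′ with the product found between the primers in the GRCh38 reference, chr1:207322431-207322510 on the plus strand. Capitals in the product mark the primer sites.
CD55 forward primer: aggccgtacaagttttcccg
CD55 reverse primer: ccttctcgccaggaattttcac
CD55 amplicon: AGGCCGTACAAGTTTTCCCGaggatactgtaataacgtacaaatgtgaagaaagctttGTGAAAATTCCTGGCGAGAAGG
The product of 80 bases lies within 1 coding exon and was found in 8 of the 14 annotated CD55 transcripts, among them 8 of the 9 coding transcripts, and in no other gene. FPKM values count fragments over the whole gene model, including transcripts that this product misses.

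C10orf54 (ENSG00000107738, chromosome 10, 71747559 to 71773498, minus strand) encodes VSIR, a surface protein that restrains T cells. It stood at 4.05 and 3.89 FPKM in control and at 8.11 and 6.68 FPKM in GAP43. Both GAP43 libraries were higher than both controls, with the lowest GAP43 library 1.65-fold above the highest control. The means were 3.97 ± 0.114 and 7.40 ± 1.01 FPKM (SD, n = 2 each), 1.87-fold higher in GAP43. Control replicates differed by 1.04-fold and GAP43 replicates by 1.21-fold, so here the gap between the groups was wider than either spread. The log2 difference was 0.75 (SE 0.17), with 0.88 and 0.63 for the GAP43 replicates. It rested on 438 and 385 fragments in control and 917 and 669 in GAP43, with Poisson intervals of 3.68 to 4.44 and 3.51 to 4.29 FPKM in control and 7.59 to 8.65 and 6.19 to 7.21 FPKM in GAP43.

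**Figure D2:**
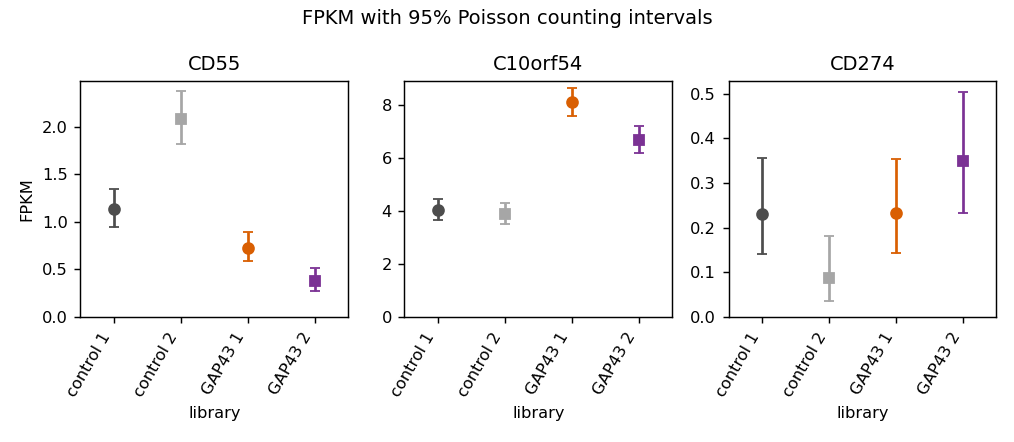
FPKM in each library with 95% Poisson counting intervals for CD55, C10orf54 and CD274, each panel on its own linear axis. The intervals of GAP43 and control libraries are apart for CD55 and C10orf54, and those of CD274 run from 0.0355 to 0.182 FPKM in control replicate 2 to 0.232 to 0.505 FPKM in GAP43 replicate 2, with the other libraries between and overlapping.

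Because the 2 genes chosen for their difference lay in opposite directions, their promoters are shown side by side. Each window holds 250 bases before and 50 after the start site in RefSeq (GRCh38.p14), 5′ to 3′ on the gene's strand, chr1:207321428-207321727 (plus) for CD55 and chr10:71773471-71773770 (minus) for C10orf54. The span of CD55 given above starts at 207321508, inside its window, so part of that window lies within the span. Capitals mark the GC box GGGCGG, read on either strand, and TGACG, the first part of the cAMP response element, likewise.
CD55 promoter: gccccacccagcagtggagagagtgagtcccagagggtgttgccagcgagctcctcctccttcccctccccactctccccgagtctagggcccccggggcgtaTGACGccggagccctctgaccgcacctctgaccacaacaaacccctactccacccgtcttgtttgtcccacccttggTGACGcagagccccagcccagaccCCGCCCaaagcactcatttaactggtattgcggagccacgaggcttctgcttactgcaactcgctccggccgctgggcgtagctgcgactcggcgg
C10orf54 promoter: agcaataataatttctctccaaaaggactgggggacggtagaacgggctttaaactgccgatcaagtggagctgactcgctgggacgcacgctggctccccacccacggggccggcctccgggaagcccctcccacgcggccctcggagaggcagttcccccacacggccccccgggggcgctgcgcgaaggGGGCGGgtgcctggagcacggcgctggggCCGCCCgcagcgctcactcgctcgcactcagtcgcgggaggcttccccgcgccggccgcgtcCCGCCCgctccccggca
CD55 had 1 GC box, at -46, and TGACG at -147 and -70, counted from the start site. C10orf54 had 3 GC boxes, at -58, -29 and 34, and the other motif was absent. The GC box was found in 45.0% and the TGACG motif in 24.6% of 35116 RefSeq promoter windows of the same length. Of the 13 windows of the 8 genes, 10 held the GC box and 4 held TGACG, which was also found at CD46 and CD47. Windows of CD46 overlap each other, as do windows of CD59, so the same site can be counted more than once. Neither window held, on either strand, the CCAAT box (its letters are in 34.6% of windows) or the full cAMP response element TGACGTCA (in 1.85%, overlapping the shorter motif). Likewise absent were the site of the factor AP-1, searched as TGANTCA and found in 7.71% of windows, the TATA box, searched as TATAAA and found in 11.5%, and the hypoxia response element, searched as ACGTG and found in 21.4%. The CD55 window was 65.0% G and C with 19 CpG, more CpG than 57.1% of windows, and the C10orf54 window 72.0% with 35 CpG, more than 85.9%. Such matches are a description and were not tested for binding.

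CD46 (ENSG00000117335, chromosome 1, 207752057 to 207795513) lies 365 kb downstream of CD55 and was the most abundant of the 8 genes. It stood at 36.4 and 41.4 FPKM in control and 33.5 and 50.8 FPKM in GAP43, where the GAP43 libraries were the lowest and the highest of the 4. The log2 difference was 0.09 (SE 0.25, 95% interval -0.52 to 0.69, limma adjusted p = 0.919), and it became -0.21 without GAP43 replicate 2. CD59 (ENSG00000085063, chromosome 11, 33698261 to 33736445), which is GPI-anchored like CD55, stood at 9.85 and 11.5 FPKM in control and at 11.8 and 9.47 FPKM in GAP43. Its groups overlapped, with means of 10.7 ± 1.15 and 10.6 ± 1.67 FPKM (SD, n = 2 each). The log2 difference was -0.01 (SE 0.19, 95% interval -0.46 to 0.45, adjusted p = 0.996), a fold of 0.728 to 1.36 on the FPKM + 1 scale. The other 2 membrane regulators therefore had no called difference where CD55 was lower, but the interval of CD46 reaches a fold of 0.698. A difference between the changes of CD55 and of the other regulators was not tested.

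Of the checkpoint genes, CD274 (ENSG00000120217, chromosome 9, 5450503 to 5470566) was near the limit of detection. It stood at 0.231 and 0.0882 FPKM in control and 0.232 and 0.349 FPKM in GAP43, which is 20, 7, 21 and 28 fragments. GAP43 replicate 1 and control replicate 1 differed by 1 fragment, so the order of the groups rests on GAP43 replicate 2 and control replicate 2. In a fit without the filter the log2 difference was 0.16 (SE 0.10, 95% interval -0.13 to 0.44, limma adjusted p = 0.763), on a scale that shrinks the change of so low a gene. The ratio of the mean FPKM was 1.82, and the log2 difference was 0.63 with a pseudocount of 0.1, 0.43 with FPKM divided by its sum and 0.98 with voom on recovered fragments, none of them called. No difference was detectable at this depth, and its size depends on the scale.

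CD276 (ENSG00000103855, chromosome 15, 73683966 to 73714518) was the steadiest gene, at 10.7 and 11.2 FPKM in control and 10.8 and 10.4 FPKM in GAP43. All 4 libraries lay within the range 10.4 to 11.2 FPKM, and the groups overlapped. Its log2 difference was -0.05 (SE 0.16, 95% interval -0.44 to 0.34, adjusted p = 0.928). PVR (ENSG00000073008, chromosome 19, 44643798 to 44663583) stood at 22.2 and 24.0 FPKM in control and 21.1 and 17.9 FPKM in GAP43. Both GAP43 libraries were lower, but the lowest control was only 1.05-fold above the highest GAP43 library. The log2 difference was -0.24 (SE 0.18, 95% interval -0.68 to 0.20, adjusted p = 0.717). CD47 (ENSG00000196776, chromosome 3, 108043298 to 108091025) stood at 6.71 and 5.91 FPKM in control and 6.30 and 8.70 FPKM in GAP43, where GAP43 replicate 1 lay between the controls. Its log2 difference was 0.21 (SE 0.20, 95% interval -0.27 to 0.68, adjusted p = 0.754), and without GAP43 replicate 2 it was -4.7e-05.

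**Figure D3:**
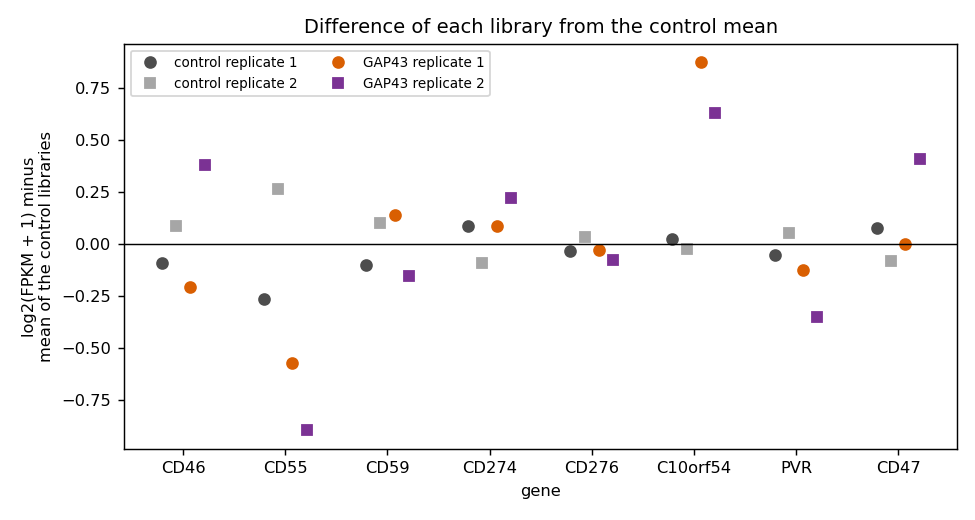
Each library's log2(FPKM + 1) minus the mean of the control libraries, for the 8 genes. The GAP43 points of C10orf54 lie at 0.88 and 0.63 and those of CD55 at -0.57 and -0.90. For CD46, CD59, CD276 and CD47 the GAP43 replicates lie on both sides of a control library.

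Per length, the order of levels was CD46, PVR, CD276, CD59, CD47, C10orf54, CD55 and CD274. Neighbours in this order differed in the same direction in 4 of 4 libraries with ranges that did not overlap, except for 2 pairs. CD276 and CD59 overlapped, CD276 being higher in 2 of 4 libraries, and CD47 and C10orf54 overlapped, CD47 being higher in 3 of 4. In GAP43 replicate 1, C10orf54 at 8.11 FPKM was above CD47 at 6.30 FPKM. By their mean level over the 4 libraries, CD46 was above 92.4% and PVR above 83.4% of the genes tested, and CD55 above 2.01%.

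Reads from some members may be shared with other genes. Of all words of 50 bases in a gene's annotated transcripts, 5.97% for CD59 also occurred in other genes' transcripts, 2.00% for PVR, 1.49% for CD276, 0.942% for CD46, 0.287% for CD55 and 0.132% for CD47, and 0 of those of C10orf54 and CD274. Annotated exons of AL049629.2 overlapped 6.07% of the exonic bases of CD59, and those of CEACAM19 3.44% of PVR. Both of these overlaps lie on the same strand, so counting by strand could not separate them, and values of those pairs are uncertain by that part. Whether the counting used strand is not given in the sources used here. The exons of CD55 and C10orf54 overlapped no other gene, although the span of C10orf54 overlaps that of CDH23 on the opposite strand (mean 0.0778 FPKM).

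The wider pathways were read from lists of complement, checkpoint and GPI anchor genes. Without CD55 and C10orf54 they held 75 tested genes, of which 1 was higher and 0 lower at an unadjusted limma p of 0.05 (1.33%, beside 5.89% of all genes), and 0 at an adjusted p. Their median log2 difference was -0.05, beside -0.04 for all genes. The voom fit called 2 higher and 1 lower unadjusted, beside 396 higher and 404 lower of all genes.

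Few other complement genes passed the filter. Of 7 membrane regulators 6 were in the table and the filter kept CD46, CD55 and CD59, and of 10 soluble regulators 9 were in the table and it kept CLU (clusterin), at 3.70 and 2.02 FPKM in control and 2.59 and 3.73 FPKM in GAP43, with overlapping groups. Of 29 components and anaphylatoxin receptors 20 were in the table and it kept 4, with 0 called at an unadjusted p (beside 5.89% of all genes) and a median of 0.26, which was -0.07 for GAP43 replicate 1 and 0.69 for GAP43 replicate 2. C3, the protein that CD55 and CD46 act upon when deposited, stood at 1.56 and 0.640 FPKM in control and 1.15 and 3.62 FPKM in GAP43, overlapping. C8G, a chain of the pore, stood at 2.27 and 1.16 FPKM in control and 2.48 and 4.80 FPKM in GAP43 (log2 0.76, limma unadjusted p = 0.0545). C3 and C8G were named after their values were seen, and in both the highest library was GAP43 replicate 2.

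Among the 28 checkpoint ligands and inhibitory surface proteins, 16 were tested. Of the 15 other than C10orf54, 0 were called at an unadjusted p (beside 5.89% of all genes), 10 had log2 differences above 0 and 5 below (beside 44.5% and 55.5% of all genes), and the median was 0.11. The groups did not overlap in 6 of these, 3 above and 3 below, which is 20.0% each beside 17.1% and 24.1% of all genes. Apart from C10orf54, BTN2A2, a butyrophilin that restrains T cells, had the largest positive log2 difference of the list, 0.44, with 1.65 and 1.56 FPKM in control and 2.96 and 2.16 FPKM in GAP43 (unadjusted p = 0.0749). PVRL1, a nectin of the family of PVR, stood at 18.1 and 19.7 FPKM in control and 10.6 and 17.3 FPKM in GAP43. CD24, a GPI-anchored ligand of SIGLEC10, was at 14.0 and 17.8 FPKM in control and 11.7 FPKM in GAP43 replicate 1, but at 0.695 FPKM in GAP43 replicate 2, 16.8-fold below the lowest other library (42 fragments against 796 to 1068). Its log2 difference was -1.86 (SE 0.84, unadjusted p = 0.0678, adjusted p = 0.692). CD24 has near-identical copies in the genome, so its reads may have been shared, and BTN2A2, PVRL1 and CD24 were named after their values were seen.

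Among partners of the members, CMTM6, which holds PD-L1 at the surface, stood at 18.5 FPKM in both controls and at 19.5 and 11.5 FPKM in GAP43. SIRPA, the receptor of CD47, stood at 2.56 and 2.15 FPKM in control and 2.20 and 3.15 FPKM in GAP43. Of the 5 partners tested 0 were called at an unadjusted or an adjusted p of 0.05, beside 5.89% and 0% of all genes. Of 12 checkpoint receptors of lymphocytes and phagocytes 8 were in the table, and only LAG3 of these passed the filter, at 1.59 to 2.78 FPKM.

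GPI anchors hold CD55 and CD59, so the enzymes that make and attach them were also read. Of 29, 28 were in the table and the filter kept 27, of which 0 were called at an unadjusted p (beside 5.89% of all genes), 8 had log2 differences above 0 and 19 below (beside 44.5% and 55.5% of all genes), and the median was -0.10. Both GAP43 libraries were below both controls in 6 (22.2%, beside 24.1% of all genes) and above in 0 (beside 17.1%). Of 21 other tested genes for GPI-anchored proteins, 1 was higher and 0 lower at an unadjusted p (beside 3.05% and 2.84% of all genes), and the groups did not overlap in 7, 4 above (19.0%, beside 17.1%) and 3 below (14.3%, beside 24.1%). The higher gene was GFRA3, a receptor for artemin, at 11.3 and 16.0 FPKM in control and 20.0 and 35.4 FPKM in GAP43 (log2 0.94, SE 0.31, limma unadjusted p = 0.0223, adjusted p = 0.692). The median of these 21 genes was -0.13.

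**Figure D4:**
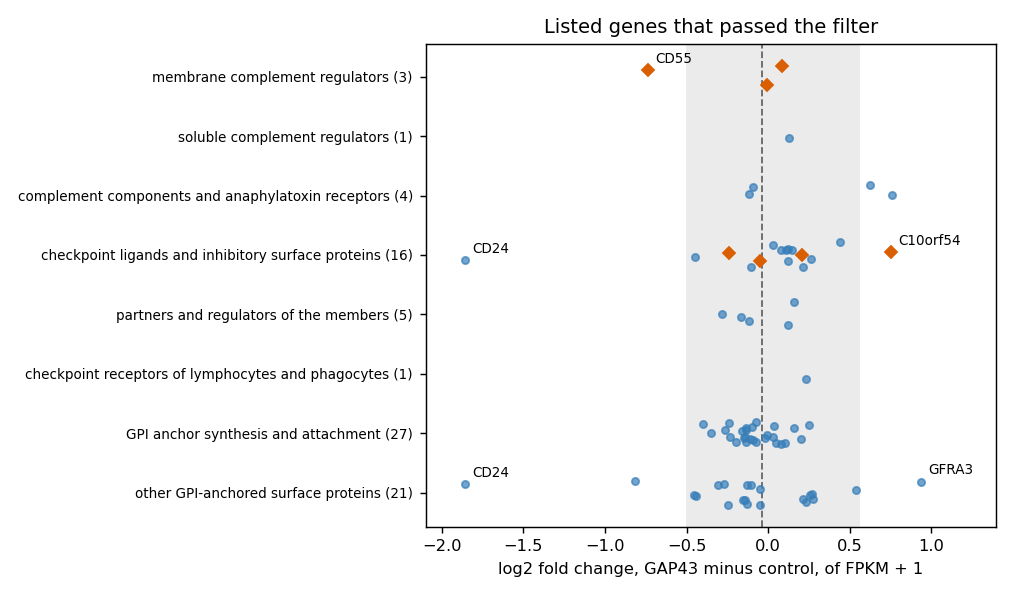
Log2 difference (GAP43 minus control, of FPKM + 1) of each tested gene of the 8 lists, with the number tested in brackets. Diamonds are the 7 tested genes of the 8 described and circles the other listed genes (CD24 stands in 2 lists), the dashed line is the median of all genes (-0.04), and the shaded band holds the central 90% of all genes. CD55 and C10orf54, which were chosen for their difference, lie outside the band (-0.50 to 0.56) at -0.73 and 0.75. Other listed genes outside it include CD24 at -1.86, GFRA3 at 0.94, C8G at 0.76 and C3 at 0.62.

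The genes around CD55 and C10orf54 were compared with them. Within 500 kb of CD55 the filter kept 4 of 17 genes. Of these, 0 were called at an unadjusted or an adjusted p of 0.05, beside 5.89% and 0% of all genes. PFKFB2, a regulator of glycolysis, differed by -0.04, C1orf116 by -0.01 and CD46 by 0.09 on the log2 scale. YOD1, a deubiquitinase, stood at 4.09 and 4.40 FPKM in control and 5.72 and 5.55 FPKM in GAP43, opposite in direction to CD55 (log2 0.34, unadjusted p = 0.0713). Other complement genes of this cluster were hardly expressed. Within 500 kb of C10orf54 the filter kept 6 of 11 genes, of which 1 was called at an unadjusted p (beside 5.89% of all genes). PSAP, the precursor of the saposins and the nearest of these, stood at 87.9 and 94.9 FPKM in control and 96.1 and 90.7 FPKM in GAP43 (log2 0.03). ASCC1, SLC29A3, ANAPC16 and UNC5B differed by -0.24, -0.04, -0.30 and -0.22, none called. A Y_RNA gene, a short noncoding RNA with many near-identical copies, stood at 4.69 and 3.07 FPKM in control and 7.18 and 13.2 FPKM in GAP43 (log2 1.16, SE 0.30, limma unadjusted p = 0.00821, adjusted p = 0.692). Its gene model has 101 bases, and these values rested on only 10 and 6 fragments in control and 16 and 26 in GAP43. It lies within the span of ANAPC16 on the same strand, so its reads may have been shared.

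**Figure D5:**
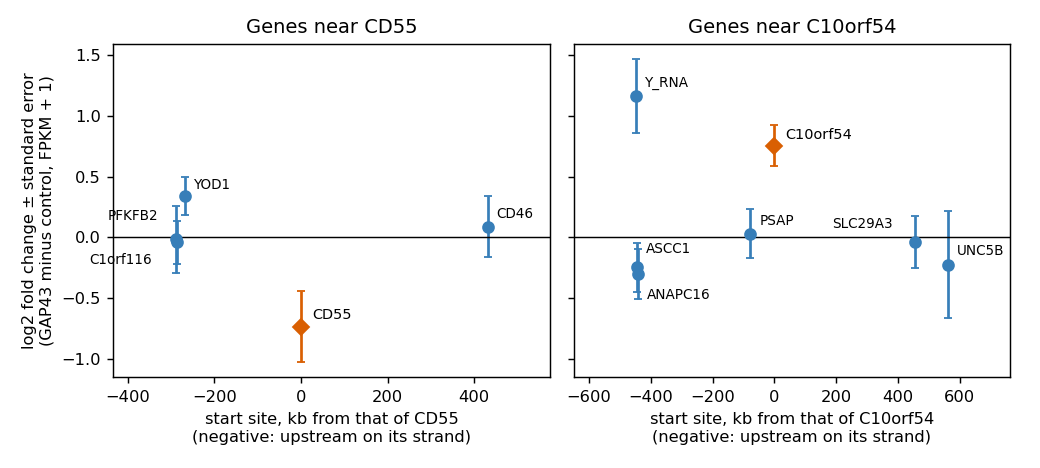
Log2 difference (GAP43 minus control, FPKM + 1) with its standard error of the tested genes near CD55 and near C10orf54, by the distance of their start sites in kb. CD55 at -0.73 lies below all its tested neighbours (-0.04 to 0.34), and C10orf54 at 0.75 lies above all but the Y_RNA gene at 1.16, which rests on 6 to 26 fragments. CD55 and C10orf54 were chosen for their difference and the neighbours were not, so their distance from the neighbours is only a description.

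The tested protein-coding genes most like CD55 over the 4 libraries, by Euclidean distance of centred log2(FPKM + 1), were WARS, PLEK2, GPAT3, MRPL54 and CDC42EP1, at distances of 0.0883 for WARS to 0.115 for CDC42EP1. GPAT3, an enzyme of triglyceride synthesis, stood at 8.84 and 12.4 FPKM in control and 7.26 and 5.24 FPKM in GAP43, with the 4 libraries in the order of CD55. Those most like C10orf54 were RDH10 (0.155), CLIC3 (0.187), IGFL4 (0.188), TNNC1 (0.215) and SLC7A8 (0.220). RDH10, an enzyme of retinoid synthesis, stood at 23.8 and 22.8 FPKM in control and 40.9 and 31.9 FPKM in GAP43. With 4 libraries many genes share a shape, and these are a description.

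Other cell types could carry such genes, so their markers were read. Epithelial and colorectal markers were present, with 10 of 13 tested and summed levels of 1778 and 2478 FPKM in control and 1854 and 1836 FPKM in GAP43, although KRT20, CDX1 and CEACAM5 did not pass the filter. Leukocyte markers, of which 2 of 14 passed (CD4 and LYZ), summed to 15.3 and 14.6 FPKM in control and 13.1 and 19.8 FPKM in GAP43, with PTPRC at 0.0122 FPKM or less and MS4A1 at 0. Fibroblast and endothelial markers had 1 tested each (LUM and ENG), with sums of 6.21 to 9.69 and 2.02 to 2.62 FPKM and COL3A1 and KDR at 0. Most of the leukocyte sum was CD4. VSIR is abundant in myeloid cells, whose markers CD14 and ITGAM were at most 0.217 and 0.0502 FPKM, and the part of other cells in the C10orf54 difference was not tested. The share of mitochondrial fragments was 4.25% and 3.68% in control and 4.93% and 6.78% in GAP43, and its part in the differences was not tested. In these bulk samples, fewer cells of a type and less RNA per cell cannot be told apart.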

How the data were processed

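Poly(A) RNA of 4 SW620 libraries was primed with random hexamers and sequenced as read pairs. The authors deposited FPKM values per gene. Tools listed in the submitters' processing notes were Cuffdiff, Cufflinks 1.1 and TopHat2 2.0.13, with the build hg19 and no roles. Which counter, gene annotation and strand mode made the values is not given in the sources used here. The table's positions are those of GRCh38: of 33057 gene identifiers also in GENCODE release 29, 96.3% had the same start. Of the 8 genes described, 5 did. FPKM times gene length gave whole fragments for 100% of values (within 0.01), which gave counting intervals and the voom alternative.

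Genes whose mean over the 4 libraries reached 1 FPKM (13507, of which 10692 protein-coding) were fitted as log2(FPKM + 1) in limma 3.58.1 (R 4.3.3, eBayes with a trended prior, 2-sided, Benjamini-Hochberg over all genes), without a block. Intervals for single genes are at 95%. The code was tested on simulated data. Alternatives were a pseudocount of 0.1, no filter, FPKM divided by its sum, voom on recovered fragments with median-ratio size factors, a constant prior, protein-coding genes alone, a replicate block and leaving out each library. Python 3.11.15, pandas 2.3.3, scipy 1.17.1 and matplotlib 3.10.9 were used.

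The genes and lists were chosen with earlier results of these data known. Named were the 8 genes, GAP43, list genes with an unadjusted p under 0.05 (up to 4 a list), tested genes within 500 kb of CD55 or C10orf54 (up to 6) and the 5 genes most like each. C3, C8G, BTN2A2, PVRL1, CD24, CLU, CMTM6, SIRPA, LAG3, CD14, ITGAM and the other markers named were added after the values were seen.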

Additional observations from a re-analysis of the deposited data

How the results depend on the processing

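The direction of CD55 and C10orf54 was fixed by how they were chosen, since their groups do not overlap. The size of their difference was selected with it. Their values below show only how the size depends on the processing. The log2 difference of CD55 was -1.39 with a pseudocount of 0.1, -1.08 with FPKM divided by its sum and -1.46 with voom, each of which weighs the pseudocount less against its low level, and from -1.0 without control replicate 1 to -0.47 without control replicate 2 when a library was left out. That of C10orf54 was 0.96 with FPKM divided by its sum, 0.95 with voom, and 0.63 to 0.88 with a library left out. CD46, CD59, CD276 and CD47 changed sign, all without a call: CD46 ranged from -0.21 (without GAP43 replicate 2) through -0.00244 (without control replicate 1) to 0.38, CD59 was 0.11 with FPKM divided by its sum, 0.051 with voom and -0.15 to 0.14 with a library left out (0.10 without control replicate 2), CD276 was 0.062 with FPKM divided by its sum, and CD47 was -4.7e-05 to 0.41. PVR and CD274 kept their sign, also with groups that do not overlap, and CD274 went from 0.16 to 0.63 with a pseudocount of 0.1, 0.43 with FPKM divided by its sum and 0.98 with voom. Unadjusted limma p over the alternatives was 0.0676 to 0.614 for PVR, 0.118 to 0.584 for CD274 and 0.0578 or more for the others tested.

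Counts over all genes moved more. Genes higher at an unadjusted p (412) were 1070 without the filter, 223 among protein-coding genes alone and 270 to 1565 with a library left out. Genes lower (383) were 676 without the filter, 213 with FPKM divided by its sum and 77 to 2513 with a library left out, the lowest without control replicate 2 and the highest without GAP43 replicate 1. Genes at an adjusted p (0) were 0 to 15 with a library left out, 15 without control replicate 1. Dividing FPKM by its sum moved the median of all genes from -0.04 to 0.07 and the share of calls that were higher from 51.8% to 73.0%. Among protein-coding genes alone the balance went the other way, with 223 higher and 418 lower. Of the 75 listed genes, the number higher (1) was 2 without the filter, with FPKM divided by its sum and with voom, 3 among protein-coding genes alone and 1 to 8 with a library left out. The number lower (0) was 1 without the filter, with voom and among protein-coding genes alone, and 1 to 9 with a library left out, 8 and 9 both without GAP43 replicate 1. The counts without the filter are not confined to the 75 genes, since listed genes below the filter were then tested too. C1S, a complement component below the filter, was higher in that fit (log2 0.22, limma unadjusted p = 0.0317). The causes of these shifts were not tested.

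The replicate numbers were shared, but whether they pair the libraries is not given in the sources used here. Deviations of same-numbered libraries were correlated at -0.16 over 13507 genes, which with 2 pairs cannot settle it. With a replicate block, 655 genes at an unadjusted p were higher, 380 were lower, and 152 passed an adjusted p, and of the listed genes 4 were higher, 2 lower and 1 passed an adjusted p. With the crossed pairing, chosen after seeing the data, 668 genes at an unadjusted p were higher, 737 were lower, and 0 passed an adjusted p, and of the listed genes 4 were higher, 3 lower and 0 passed an adjusted p.

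Only 2 libraries a group and the low counts of CD55 and CD274 limit these results: the smallest exact permutation p is 0.333, and counting intervals cover counting error only.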

Other observations

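CD4, the T helper cell coreceptor, was listed at 10.8 and 9.97 FPKM in control and 7.39 and 14.6 FPKM in GAP43, while PTPRC, which leukocytes share, was at 0.0122 FPKM or less. CEACAM5 and CEACAM6, GPI-anchored adhesion proteins of colorectal cancer cells, were below the filter. CEACAM6 stood at 0.885 and 1.48 FPKM in control and 0.639 and 0.235 FPKM in GAP43, on 57, 87, 43 and 14 fragments. CEACAM5 stood at 0.382 and 1.25 FPKM in control and 0.257 and 0.0765 FPKM in GAP43, on 27, 81, 19 and 5 fragments. The order of the 4 libraries was that of CD55 for both, which are paralogs and may have shared reads. CFI, the protease that cuts deposited C3b, stood at 0.147 and 0.240 FPKM in control, 0.211 FPKM in GAP43 replicate 1 and 1.56 FPKM in GAP43 replicate 2, on 12, 18, 18 and 118 fragments. PDCD1, which encodes PD-1, stood at 0.247, 0.294, 0.279 and 1.02 FPKM in the same order. CEACAM6, CFI and PDCD1 were named after their values were seen.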
